A study of Mus musculus with 6 samples.

Results

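The genes described here encode the machinery that turns recognition of a dying cell into its uptake. They are Lrp1, an uptake receptor, Elmo1, Elmo2, Dock1, Dock2, Crk, Rac1 and Rac2, which make up the module that drives actin around the corpse, and Gulp1 and Abca7, an adaptor and a transporter of the LRP1 arm. The 10 genes were chosen by name, and each was read from the single probe set whose platform annotation names that gene and no other, giving 10 of 28944 probe sets and 10 of 19938 genes. SS-TAMs, the starry-sky tumor-associated macrophages of Burkitt's lymphoma, were compared with GCMs, the tingible-body macrophages of germinal centers that are regarded as their normal counterparts. Both kinds of macrophage are known for clearing apoptotic B cells, so the comparison asks whether the uptake machinery differed between clearance in a tumor and in an immune response. Every mouse was female, BALB/c and 6 to 12 weeks old. SS-TAMs came from SCID mice, hosts without mature T or B lymphocytes, that carried a subcutaneous tumor of BL2, a human Burkitt's lymphoma line, of 1.44 cm2. CD68 staining picked them out. The GCMs were taken from immunocompetent mice carrying the CSF1R EGFP transgene, a reporter that marks macrophages, after 2 doses of sheep red blood cells. Their tissue label is spleen, whereas their source label says lymph nodes. Host genotype, immunization, tumor and the way cells were chosen therefore all changed with the group and cannot be told apart. From each of 6 mice, 1000 cells were cut out by laser, and their amplified RNA was measured on 1 Affymetrix Mouse Gene 1.0 array, giving 3 arrays per group.

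Engulfment is known to run through a conserved relay. In one arm, receptors on the phagocyte recruit ELMO and DOCK proteins, with help from the adaptor CRK. ELMO and DOCK together form an exchange factor that loads the GTPase RAC with GTP, and active RAC drives actin polymerization around the corpse. In the other arm, LRP1 binds calreticulin on the dying cell or on bridging proteins, and the adaptor GULP1 binds the tail of LRP1. ABCA7, a lipid transporter, has been tied to LRP1 signaling at the phagocytic cup. DOCK2 and RAC2 are the leukocyte forms of the module, whereas DOCK1 and RAC1 are broadly expressed.

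Values are intensities on a linear scale as the authors deposited them, with a median of 6.3 over all probe sets and arrays, and a gene was called at a limma adjusted p under 0.05. The 99th percentile of intensity was lower on the SS-TAM arrays (241 to 284) than on the GCM arrays (614 to 664). Captured cells carried transcripts of several cell types. Core macrophage markers were called higher in SS-TAMs in 17 of 22 cases (summed intensity 4339 to 5790 against 1538.5 to 1862 in GCMs), with Cd14, Cd163 and Itgam below the median on average. Of the core markers, Cd68 and Csf1r had been used to choose the cells. Of 22 T cell markers 11 were lower (316 to 436.5 against 1411 to 1875) and of 20 B cell markers 3 (206 to 259 against 334 to 954). Fibroblast and pericyte markers were higher in 5 of 19 cases (869 to 1633 against 467 to 595). Follicular dendritic cell and stromal markers were higher in 1 and lower in 3 of 9 cases, with a median log2 fold change of -1.69. For 5 of the 9 every SS-TAM array was below every GCM array (11.5% of all genes), and for 1 above (18.5%). Their sums (466 to 636 against 357 to 623) include Vcam1, the higher gene, at a mean of 445 against 136. Of 12 endothelial markers 0 were called by limma (81.4 to 89.0 against 88.2 to 106.5, 1 lower at an unadjusted p under 0.05). In these bulk samples, fewer cells of a type and less RNA per cell cannot be told apart. The SS-TAM hosts lacked mature T and B lymphocytes. The tumor cells around SS-TAMs were human, whereas the arrays were designed for mouse genes. The part of human RNA in the level of any gene was not tested.

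Lrp1 was the member that rose in SS-TAMs. LRP1, also called CD91, is a large endocytic receptor of macrophages, fibroblasts and hepatocytes. Its intensity was 131, 89.0 and 94.2 in SS-TAM replicates 1, 2 and 3, and 12.6, 11.8 and 12.4 in GCM replicates 1, 2 and 3. The lowest SS-TAM array lay far above the highest GCM array. The means were 105 ± 22.9 and 12.3 ± 0.42 (SD, n = 3), an 8.41-fold difference with a 95% interval of 6.49 to 10.9 (3.07 ± 0.15 on the log2 scale, fold change ± standard error; limma adjusted p = 0.00081). GCM values of Lrp1 lay at the 79.3 to 79.7 percentile of their arrays, so that the gene was read above the middle of the range in both groups, and SS-TAM values at the 96.4 to 97.7 percentile. Leaving out any 1 array kept the log2 fold change of Lrp1 between 2.90 and 3.18 (adjusted p up to 0.0087 from limma). Lrp1 is among the transcripts that the study selected from these same arrays, so the call is not independent evidence of its direction. Scaled to the core macrophage markers of each array, Lrp1 was still higher by 1.31 on the log2 scale, that is, it rose more than those markers did on average. That average includes the dim Cd14, Cd163 and Itgam. Taken singly, Mrc1 (5.26) and Adgre1 (4.07) rose more than Lrp1 on the log2 scale. Cd68 rose about as much (3.06), and the remaining markers rose less or not at all. Of 19 fibroblast and pericyte markers 5 were called higher and 0 lower by limma, with a median log2 fold change of 0.44 over the list. The called genes include the matrix genes Postn, higher by 2.82 (134 against 22.2), and Sparc, by 2.47 on the log2 scale (598 against 108). For 10 of the 19 markers every SS-TAM array was above every GCM array (18.5% of all genes), and for 1 every SS-TAM array was below (11.5% of all genes). Their part in the level of Lrp1 was not tested.

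**Figure D1:**
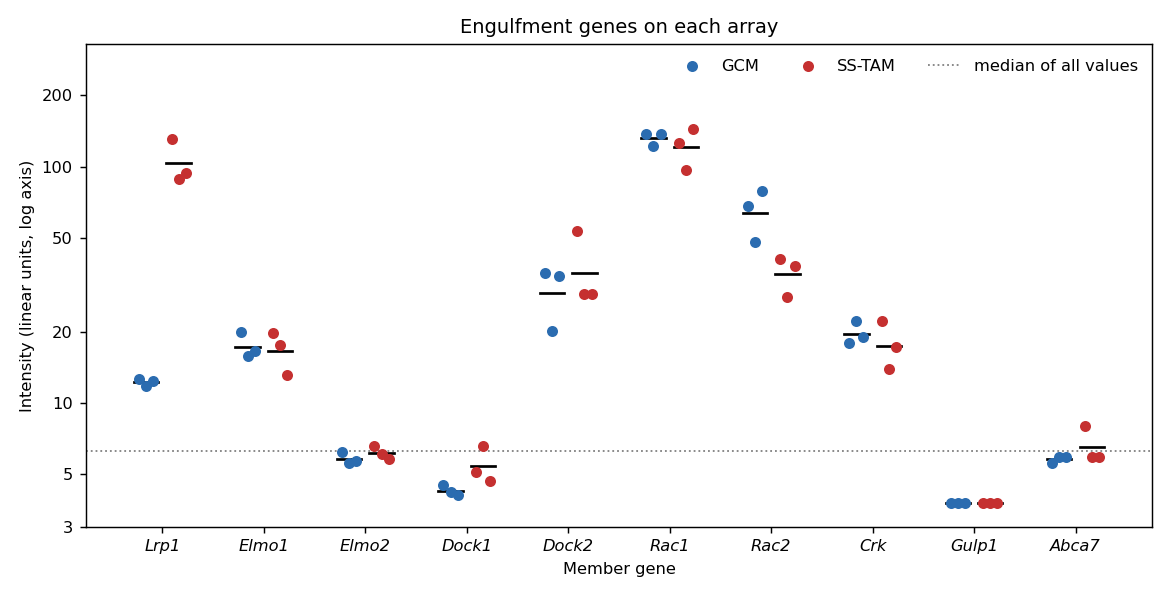
Intensity of the 10 genes in linear units on a log axis, with 3 GCM arrays as blue points and 3 SS-TAM arrays as red points for each gene, bars at the geometric mean of either group, and a dotted line at the median of all values, 6.3. Lrp1 runs from 89.0 to 131 in SS-TAMs against 11.8 to 12.6 in GCMs, Rac2 lies lower in SS-TAMs without overlap, and Elmo2, Dock1, Gulp1 and Abca7 sit near or below the dotted line.

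Since Lrp1 was the gene that moved, the 250 bases before its annotated start are shown, from the RefSeq promoter table of GRCm38.p6 at chr10:127621149-127621398 on the minus strand, written 5′ to 3′ along the gene. Capitals mark the match to a searched motif.
Lrp1 promoter: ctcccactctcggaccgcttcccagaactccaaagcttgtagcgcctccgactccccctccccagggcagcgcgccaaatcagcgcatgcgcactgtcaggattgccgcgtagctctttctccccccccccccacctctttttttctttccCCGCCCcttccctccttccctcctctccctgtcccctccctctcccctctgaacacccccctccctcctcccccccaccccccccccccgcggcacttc
The window holds 67.2% G or C against a median of 52.4% over all promoters of the table. Of 4 motifs searched on both strands, which do not overlap here, the Sp1 GC box GGGCGG matched once, on the opposite strand at -99 to -94 from the start. The core of the PU.1 site (GAGGAA), the E-box CACGTG and the AP-1 site TGANTCA did not match. Over all 32851 promoters, 32.7% hold the GC box, 23.3% the PU.1 core, 6.02% the E-box and 6.75% the AP-1 site. These matches describe the letters of the window only.

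The genes whose pattern over the 6 arrays was nearest to that of Lrp1 were Pltp, Ccl6, Plau, Atp6v0a1 and Mertk. Likeness was the root mean square difference of log2 values, each gene centred on its own mean, and ran from 0.13 for Pltp to 0.22 for Mertk. Pltp, a phospholipid transfer protein gene, was at 406, 233 and 331 in SS-TAM replicates 1, 2 and 3 and 40.9, 36.3 and 39.6 in GCM replicates 1, 2 and 3. Mertk, the receptor kinase that recognizes dying cells through bridging proteins, was at 85.2, 70.4 and 89.9 against 9.8, 10.2 and 13.1. In Pltp, in Ccl6, a chemokine gene, in Plau and in Atp6v0a1, a subunit gene of the proton pump that acidifies phagosomes, SS-TAM replicate 1 was the highest array, as it was in Lrp1. Mertk and Plau had also been chosen by the study on these arrays. Of the 5 genes, 4 have an entry in the promoter table, and 3 of those hold the GC box. Over so few arrays the likeness largely repeats the difference between the groups.

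**Figure D2:**
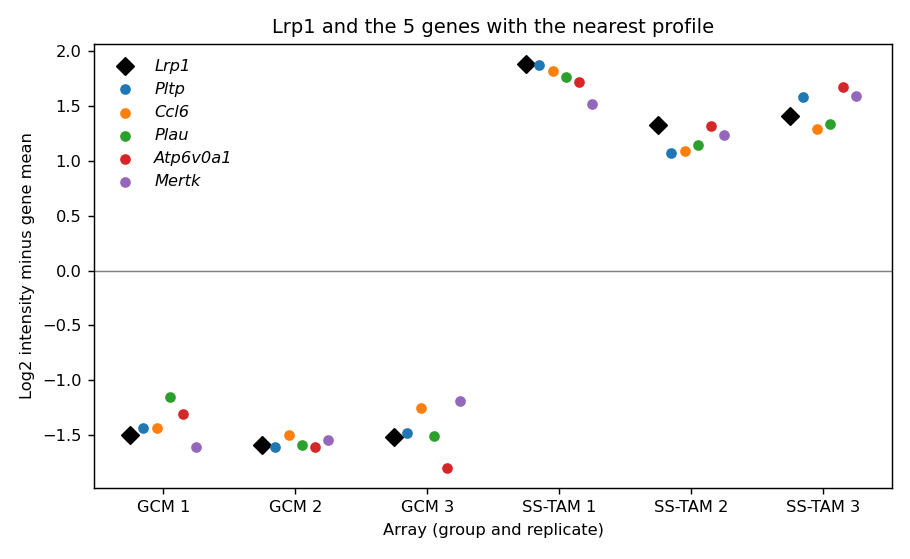
Log2 intensity of Lrp1 (black diamonds) and of the 5 genes with the nearest profile on each of the 6 arrays, every gene centred on its own mean, so that the vertical axis is a difference in log2 units. All 6 genes lie below 0 on the GCM arrays and above 0 on the SS-TAM arrays, with root mean square differences from Lrp1 of 0.13 to 0.22.

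In contrast to Lrp1, the other 9 genes were not called. Of the 10, 1 was higher, against 5.16% of all genes, and 0 were lower by limma, against 4.74%. At an unadjusted p under 0.05, 2 were higher and 1 was lower. Dock1, the weakest of these 3, ranked 4779 of 19938 genes in the limma fit, so at least 4779 genes passed that looser threshold. The 3 of 10 are therefore not read as an excess over all genes. The median log2 fold change over the 10 was 0.040, and over all genes 0.041. Arrays of the groups did not overlap for 3 of the 10 (Lrp1 and Dock1 above, Rac2 below), against 30.1% of all genes: 18.5% had every SS-TAM array above and 11.5% every SS-TAM array below.

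ELMO1 and ELMO2 are the scaffold subunits that bring DOCK proteins to the membrane. Elmo1 was at 19.8, 17.6 and 13.2 in SS-TAM replicates 1, 2 and 3 and at 19.9, 15.8 and 16.6 in GCM replicates 1, 2 and 3. The groups overlapped almost fully. The log2 fold change of Elmo1 was -0.061 with a 95% interval of -0.48 to 0.36 (adjusted p = 0.84 from limma), so a fold beyond 1.40 lower or 1.28 higher lies outside that interval. Elmo2 was at 6.6, 6.1 and 5.8 against 6.2, 5.6 and 5.7. These Elmo2 values lie around the median of the arrays, where a change in level can be compressed, and no detection calls were used. Its log2 fold change was 0.080 (95% interval -0.10 to 0.26, adjusted p = 0.53 from limma).

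DOCK1, once called DOCK180, is the broadly expressed exchange factor of the module, and DOCK2 its leukocyte relative. Dock1 was at 5.1, 6.6 and 4.7 in SS-TAM replicates 1, 2 and 3 and at 4.5, 4.2 and 4.1 in GCM replicates 1, 2 and 3. Each SS-TAM array was above each GCM array, but 5 of the 6 values lay below the median of all values and the gene was not called (log2 fold change 0.34, 95% interval 0.014 to 0.67, adjusted p = 0.18 from limma). Dock2 was at 53.2, 28.9 and 29.0 against 35.6, 20.2 and 34.6. SS-TAM replicate 1 was the highest of the 6 Dock2 arrays and GCM replicate 2 the lowest, so the groups overlapped. Of the other 4, both SS-TAM arrays lay below both GCM arrays, opposite to the difference of the means. The log2 fold change of Dock2 was 0.28 with an interval of -0.53 to 1.09 (adjusted p = 0.62 from limma), and -0.012 without SS-TAM replicate 1. This interval covers a fold from 1.44 lower to 2.13 higher, so a change in Dock2 within that range was not excluded by these arrays.

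Crk, the gene of the adaptor that links tyrosine kinase signals to DOCK1, was at 22.2, 14 and 17.3 in SS-TAM replicates 1, 2 and 3 and at 18.0, 22.2 and 19.0 in GCM replicates 1, 2 and 3. The highest array of each group had the same value. The log2 fold change of Crk was -0.17 (95% interval -0.61 to 0.28, adjusted p = 0.59 from limma).

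RAC1 and RAC2 are the GTPases on which the module acts. Rac1 was at 125.5, 97.0 and 143.6 in SS-TAM replicates 1, 2 and 3 and at 137, 122.6 and 137 in GCM replicates 1, 2 and 3. The GCM arrays fell within the range of the SS-TAM arrays, and the log2 fold change of Rac1 was -0.13 (95% interval -0.50 to 0.24, adjusted p = 0.61 from limma). Its direction turned with the scaling: after quantile normalization Rac1 was called higher by 0.61 on the log2 scale (adjusted p = 0.041 from limma). The upper end of the intensity range, where Rac1 lies (the 96.2 to 97.6 percentile), was lower on SS-TAM arrays as deposited, and quantile normalization makes the ranges equal.

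Rac2 was at 40.5, 28.2 and 38.1 in SS-TAM replicates 1, 2 and 3 and at 68.0, 47.8 and 78.6 in GCM replicates 1, 2 and 3. No SS-TAM array reached the lowest GCM array. The means were 35.6 ± 6.52 and 64.8 ± 15.6 (SD, n = 3), a log2 fold change of -0.85 with a 95% interval of -1.40 to -0.30, and the gene was not called (adjusted p = 0.073 from limma, unadjusted p = 0.0094). With dim probe sets left out, which lowers the number of genes tested, Rac2 was called lower at the same log2 fold change (adjusted p = 0.045 from limma). A replicate block also gave that call (adjusted p = 0.023 from limma), although nothing in the labels pairs the mice. In other settings the adjusted p was higher. After quantile normalization the log2 fold change of Rac2 shrank to -0.57 (adjusted p = 0.12 from limma). With array weights it was -0.88 (adjusted p = 0.16 from limma), and Rac2 was called in neither setting. Rac2 is known from lymphocytes as well as from macrophages and neutrophils. The T cell markers, lower in SS-TAMs in 11 of 22 cases, summed to 436.5, 316 and 374 in SS-TAM replicates 1, 2 and 3 and to 1411, 1662 and 1875 in GCM replicates 1, 2 and 3. The B cell markers summed to 259, 206 and 237 against 954, 335 and 334. The part of lymphocyte transcripts in the level of Rac2, and in that of Dock2 and Elmo1, which lymphocytes also express, was not tested.

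**Figure D3:**
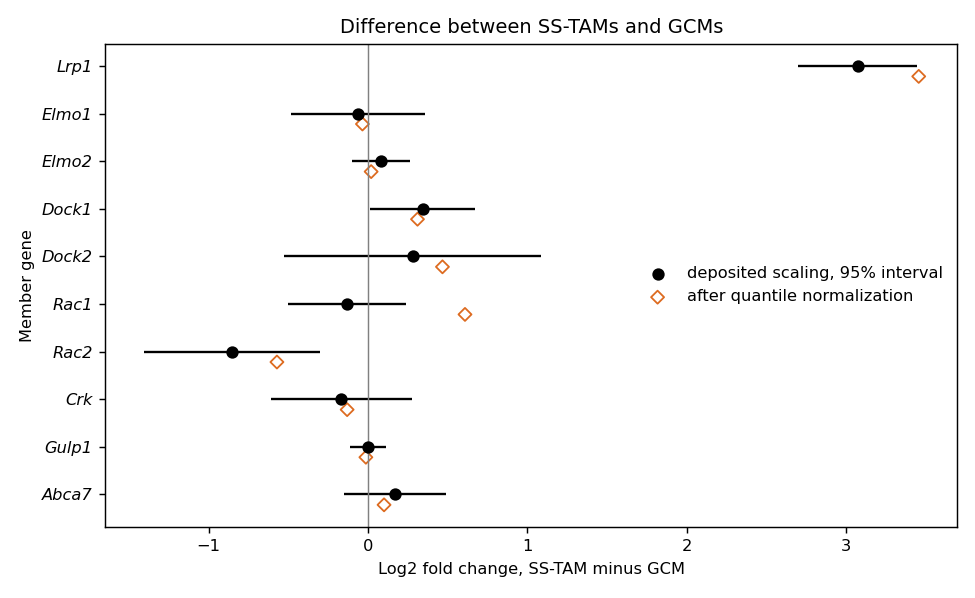
Difference in mean log2 intensity (SS-TAMs less GCMs) for the 10 genes, with black points and lines for the limma estimate and its 95% interval on the deposited scaling and open diamonds for the estimate after quantile normalization. Lrp1 stands at 3.07, the interval of Rac2 runs from -1.40 to -0.30, and Rac1 moves from -0.13 to 0.61 under quantile normalization.

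A shift of a whole array cancels when paralogs are compared within it. The level of one probe set cannot be set against another's, so only the change in their difference between groups is read. Log2 Rac2 minus log2 Rac1 was -1.63, -1.78 and -1.91 in SS-TAM replicates 1, 2 and 3 and -1.01, -1.36 and -0.80 in GCM replicates 1, 2 and 3. Each SS-TAM value was below each GCM value, so that Rac2 lay lower relative to Rac1 in SS-TAMs by 0.72 on the log2 scale (exact permutation test, two-sided p = 0.1, the smallest that 3 arrays against 3 allow; 0.3 adjusted over 3 pairs). The shift was -1.18 after quantile normalization, and between -0.87 and -0.59 without any 1 array. For Elmo1 minus Elmo2 the means were 1.43 ± 0.22 and 1.57 ± 0.097 (SD, n = 3) and the shift -0.14 (exact permutation p = 0.5). For Dock2 minus Dock1 they were 2.71 ± 0.63 and 2.78 ± 0.44 (SD, n = 3) and the shift -0.063 (exact permutation p = 0.9), with a sign that turned to 0.16 after quantile normalization. Of the 3 pairs, the Rac pair was the one whose groups did not overlap.

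**Figure D4:**
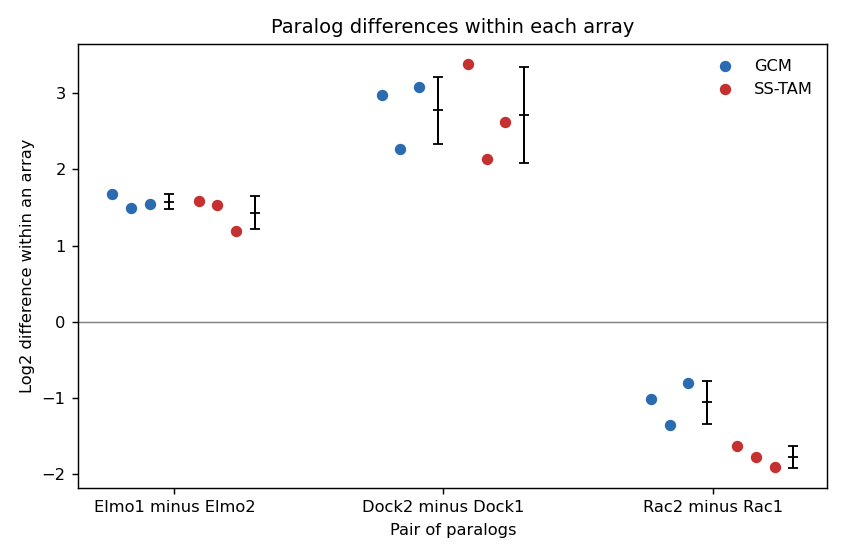
Log2 intensity of the first gene minus that of the second within each array, for 3 pairs of paralogs, with GCM arrays in blue, SS-TAM arrays in red, and bars for the mean and SD of a group (n = 3). The Rac2 minus Rac1 differences of SS-TAMs, -1.91 to -1.63, lie below those of GCMs, -1.36 to -0.80, whereas the other pairs overlap.

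GULP1 carries the signal from the tail of LRP1, and ABCA7 is a lipid transporter related to ABCA1. Gulp1 was listed at 3.8 on each of the 6 arrays, below the median of the arrays, and 62 of 19938 genes (0.311%) likewise have 1 value throughout. At this level no change in Gulp1 could be read in either direction. Abca7 was at 8.0, 5.9 and 5.9 in SS-TAM replicates 1, 2 and 3 and at 5.6, 5.9 and 5.9 in GCM replicates 1, 2 and 3. Apart from SS-TAM replicate 1, the Abca7 values did not exceed the median of all values, and the log2 fold change was 0.17 (95% interval -0.15 to 0.49, adjusted p = 0.44 from limma). Along the LRP1 arm, the receptor rose, while the adaptor was read near the low end of the arrays and the transporter near their middle.

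The members also varied among mice of one group. SS-TAM replicate 1 had the highest SS-TAM value in 7 of the 10 genes (29.4% of all genes), namely Lrp1, Elmo1, Elmo2, Dock2, Rac2, Crk and Abca7, and GCM replicate 2 the lowest GCM value in 6 of the 10 (33.0% of all genes). Core macrophage markers were summed to 5790 in SS-TAM replicate 1, 4339 in replicate 2 and 5576 in replicate 3, and to 1538.5 in GCM replicate 2, the lowest of the GCM arrays.

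The wider pathway was described by lists, beside a background of 9.90% of all genes called in either direction. By direction, 5.16% of all genes were higher and 4.74% lower, and the counts of every list below are to be read against these shares. Among receptors of dying cells, 5 of 21 were higher (5.16% of all genes) and 0 lower by limma (1 lower at an unadjusted p under 0.05), with a median log2 fold change of 0.12. Mertk rose by 2.90, the scavenger receptor gene Cd36 by 2.56, and Axl, a relative of Mertk, by 1.95 on the log2 scale, and all 3 had been chosen by the study on these arrays. Itgb5, an integrin subunit gene that signals to the CRK, DOCK1 and ELMO module, rose from 5.6 ± 0.36 to 9.0 ± 1.41 (SD, n = 3, adjusted p = 0.029 from limma). The scavenger receptor gene Scarf1 rose from 7.3 ± 0.98 to 10.7 ± 0.67 (SD, n = 3, adjusted p = 0.036 from limma), and its call was not tried under the alternatives. Removing SS-TAM replicate 3 or any GCM array ended the call of Cd36, whose SS-TAM values were 131.1, 42.3 and 45.8, and removing any array other than SS-TAM replicate 2 ended that of Itgb5 (limma adjusted p up to 0.096 and 0.12). Adgrb1, the gene of BAI1, a receptor that binds ELMO1 directly, was read at 7.6 ± 0.40 on SS-TAM arrays and 8.6 ± 0.36 on GCM arrays (SD, n = 3) and was not called (limma adjusted p = 0.16). Stab2 and Megf10, whose products work with GULP1, were at 8.67 and 6.20 in SS-TAMs and at 8.63 and 6.10 in GCMs, and neither was called (adjusted p = 0.96 and 0.87 from limma).

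Of 16 relatives of ELMO, DOCK and CRK, 1 was higher and 1 lower. Dock10, an exchange factor for CDC42 and RAC that is known from lymphocytes, was at 14.9, 16.9 and 11.3 in SS-TAM replicates 1, 2 and 3 and at 53.1, 44.9 and 47.8 in GCM replicates 1, 2 and 3, and fell by 1.77 on the log2 scale (adjusted p = 0.0032 from limma). It kept its call without any 1 array. Dock10 fell along with the T and B cell markers, whose part in it was not tested. Dock6, an exchange factor of the same family, rose from 38.8 ± 2.68 to 49.5 ± 1.93 (SD, n = 3; limma adjusted p = 0.036). The call of Dock6 was lost without any 1 array (limma adjusted p up to 0.11), and also with median centring of the arrays (limma adjusted p = 0.057). It was lost too with array weights, a replicate block and another variance model (limma adjusted p = 0.091, 0.080 and 0.16). With the mean of all its probe sets, Dock6 rose by only 0.18 on the log2 scale and was not called (limma adjusted p = 0.14).

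Of 22 actin effectors of RAC, 1 was higher and 2 were lower, with a median log2 fold change of -0.065. Actr3, a core subunit of the actin-nucleating ARP2/3 complex, fell from 141 ± 10.2 to 70.8 ± 8.31, and Brk1, a small subunit of the WAVE complex, from 100 ± 14.3 to 44.5 ± 9.64 (SD, n = 3; adjusted p = 0.0050 and 0.019 from limma). Iqgap1, a scaffold that binds active RAC and CDC42, rose from 32.9 ± 11 to 85.3 ± 18.2 (SD, n = 3; adjusted p = 0.036 from limma). Actr3 and Brk1 were not called after quantile normalization (adjusted p = 0.094 and 0.099 from limma), and Brk1 also lost its call without GCM replicate 2 or 3. Removing any array other than GCM replicate 1 ended the call of Iqgap1 (limma adjusted p up to 0.12), as did array weights (limma adjusted p = 0.10).

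Around LRP1 itself, 9 of 22 chaperones, ligands and co-receptors were higher and 2 lower, with a median log2 fold change of 0.53. Lpl, the lipoprotein lipase gene, was at 85.7, 51.4 and 74.6 in SS-TAM replicates 1, 2 and 3 and at 6.8, 5.3 and 6.3 in GCM replicates 1, 2 and 3. The GCM arrays lay around the median of all values, and Lpl rose by 3.50 on the log2 scale (95% interval 2.99 to 4.01, adjusted p = 0.0011 from limma). Plau, the urokinase gene, rose by 2.83 and the complement gene C1qb by 2.57 on the log2 scale (adjusted p = 0.0015 and 0.0022 from limma). The lower genes were Hsp90aa1 and Mfge8. Hsp90aa1 fell from 316 ± 26.1 to 106 ± 7.94 (SD, n = 3, log2 fold change -1.58, adjusted p = 0.0010 from limma). Mfge8, the gene of a bridging protein for dying cells, fell from 39.3 ± 6.51 to 8.80 ± 1.13 (SD, n = 3, adjusted p = 0.0015 from limma). It is also a marker of follicular dendritic cells, of whose list 3 of 9 were lower, namely Clu, Ccl19 and Mfge8 itself, while Vcam1 was higher. C1qa, C1qb and C1qc are also core macrophage markers, Pdgfrb is also a pericyte marker, and Plau and Psap had been chosen by the study. Calr, the gene of calreticulin, rose from 114 ± 0.058 to 177 ± 7.54 (SD, n = 3; limma adjusted p = 0.0027). Lrpap1, the chaperone that escorts LRP1 to the surface, was at 32.4 ± 12.7 against 12.3 ± 2.18 (SD, n = 3) and was not called (adjusted p = 0.069 from limma).

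Among 13 relatives of LRP1 in the LDL receptor family, 2 were higher and 0 lower by limma (0 also at an unadjusted p under 0.05), and the median log2 fold change was 0.14. Lrp12 was at 37.4, 18.2 and 31.8 in SS-TAM replicates 1, 2 and 3 and at 5.7, 5.8 and 6.1 in GCM replicates 1, 2 and 3. The GCM level of Lrp12 was below the median of the arrays, and the gene rose by 2.25 on the log2 scale (95% interval 1.60 to 2.90, adjusted p = 0.0072 from limma). Lrp5, a co-receptor of WNT proteins, rose by 0.63 (adjusted p = 0.012 from limma), and lost its call without GCM replicate 2 or 3 (adjusted p up to 0.052 from limma). Among 11 relatives of Abca7, 1 was higher and 0 lower by limma (0 also at an unadjusted p under 0.05). It was Abca1, the cholesterol exporter gene, which the study had chosen and which rose from 17.3 ± 2.27 to 91.0 ± 19.0 (SD, n = 3; log2 fold change 2.38, adjusted p = 0.0018 from limma). The median over these relatives was 0.047.

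**Figure D5:**
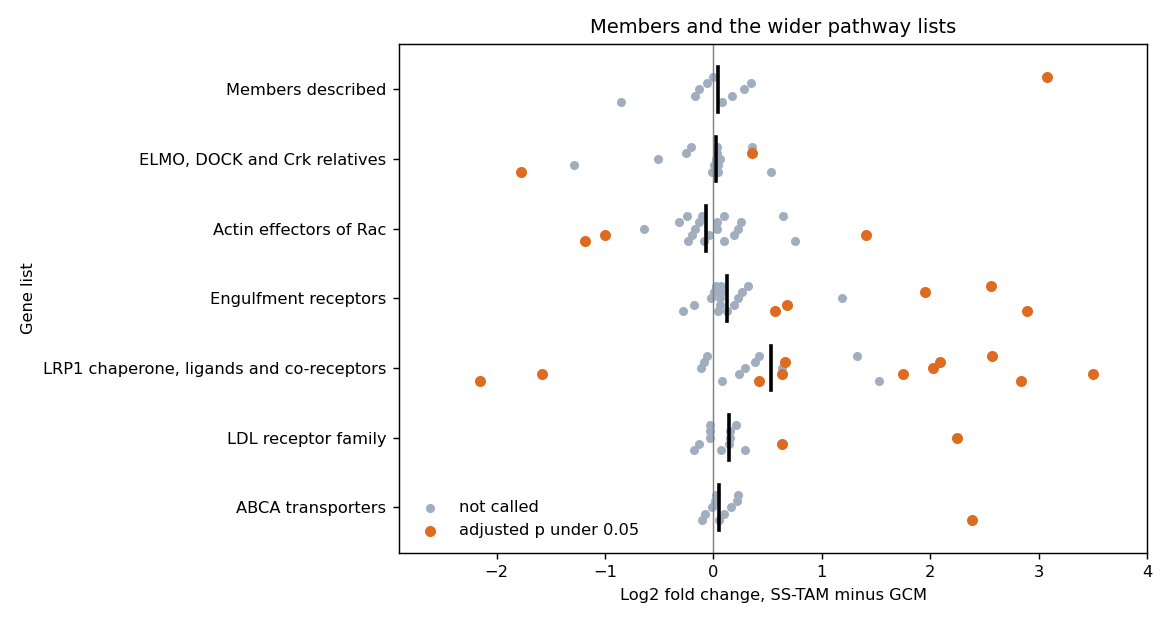
Difference in mean log2 intensity (SS-TAMs less GCMs) for the 10 members and of 6 wider lists, where each point is 1 gene, orange points had an adjusted p under 0.05 from limma, and each black line is the median of a list. Called receptors and LRP1 ligands reach 2.90 and 3.50, whereas the medians of the ELMO, DOCK and Crk relatives and of the actin effectors are 0.026 and -0.065.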

How the data were processed

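Amplified RNA of 1000 captured macrophages per mouse was hybridized to Affymetrix Mouse Gene 1.0 arrays. The deposited intensity values are on a linear scale with 1 decimal, from 2.4 to 2544. The submitters' processing notes name RMA and limma; for versions, settings and genome build, nothing was given in the sources used here. Of the rows, probe sets that name 1 gene (21789) were kept, and those naming several genes (1621) or unnamed here (5534) were left out. Symbols were updated by gene ID through the RefSeq table (21698 matched). The brightest probe set stood for a gene. A linear model on log2 values (lmFit, then eBayes, of limma 3.58.1 under R 4.3.3) compared 3 with 3 arrays two-sidedly and held no covariate. P-values were adjusted by Benjamini-Hochberg across the 19938 genes. The number of arrays limits the precision. Each mouse is a separate animal.

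The members, lists, pairs and tests were chosen with earlier results of these data known. Named genes are the members, up to 4 called genes of each wider list with the largest changes, and the 5 genes nearest to Lrp1. Scarf1, Adgrb1, Stab2, Megf10, Calr, Lrpap1, Hsp90aa1, Psap, Pdgfrb, Postn, Sparc, Rgs5, Thy1, Dcn and Tagln fall outside this rule and were chosen after their values were seen. One list of the wider pathway is not reported here. The fit was tested on simulated data. Alternatives were 3 scalings, dim probe sets left out, the mean of all probe sets, another variance model, array weights, a replicate block, an offset of 4 before log2, and each array left out.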

Additional observations from a re-analysis of the deposited data

How the results depend on the processing

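Lrp1 kept its direction and its call under all 15 alternatives. After quantile normalization 2 members were higher, since Rac1 turned to 0.61. With dim probe sets left out 1 member, Rac2, was lower. When each array was scaled to its core macrophage markers, the median over all genes became -1.72, with 73 genes higher and 19754 lower, and 9 members lower. There Elmo2 turned to -1.68, Dock1 to -1.42, Dock2 to -1.48, Abca7 to -1.59, Dock6 to -1.41, Iqgap1 to -0.35, Itgb5 to -1.08 and Lrp5 to -1.13. Relative to that median, Lrp1 stood at 3.03, Rac2 at -0.89 and Dock1 at 0.30, as without the scaling, so the turned signs follow from the common shift. Axl was not called there.

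Same-numbered arrays had correlated deviations of 0.089, 0.081 and 0.022, and other pairs -0.080 to 0.0089; every array correlated best with its own number, but nothing in the labels pairs the mice. With the replicate block 611 genes were higher, and 1 member was lower, Rac2 (adjusted p = 0.023 from limma).

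Without 1 array, 271 to 1159 genes were higher and 399 to 796 lower (271 and 399 without GCM replicate 2; 348 and 499 without GCM replicate 1; 303 and 433 without GCM replicate 3), and 1 member was higher and 0 lower each time. Small differences turned sign: Elmo1 ranged from -0.19 to 0.11, Dock2 from -0.012 to 0.43 and Rac1 from -0.26 to 0.024. The Dock2 minus Dock1 shift ranged from -0.40 to 0.23, and was 0.16 after quantile normalization and 0.059 with the offset. The causes of the changed counts were not tested. Gulp1, Dock1, Elmo2 and Abca7 were read at levels where changes may be compressed, without detection calls.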
